A study of Mus musculus with 12 samples.

Results

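The genes described here are 36 mouse genes of the secretory pathway and of the unfolded protein response, taken by symbol from a fixed list of endoplasmic reticulum (ER) chaperones, collagen folding enzymes, coat and translocon genes, and stress response factors with their targets. All 36 were found among the 28244 gene symbols of the table, and all 36 were among the 17674 genes that passed the filter on low values (3 or more libraries with a log2 value of 1 or above). RNA came from pellets of mesenchymal progenitors of C57/BL6 mice, isolated from the heads and condyles of long bones of pups aged 5 or 6 days. Pellets spent 7 days in chondrogenic medium (D7) and were then moved to osteogenic medium, in which they were harvested after 1 day (D8), 3 days (D10) and 21 days (D28). Each of the 4 time points has 3 libraries, 12 in all, and every pellet shared the chondrogenic week. D7 is the only time point without osteogenic medium, so the medium, the days since the change and the age of the pellet cannot be told apart. The labels do not say whether replicates came from separate litters or cell preparations, and the p-values measure the spread between these libraries, which may be technical.

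Proteins made for secretion enter the ER through the Sec61 channel, fold there with the help of chaperones and disulfide isomerases, and leave in vesicles of the COPII coat. When unfolded protein accumulates, the sensors IRE1 (Ern1), ATF6 and PERK raise chaperone and degradation genes through the factors XBP1, ATF6 and ATF4, and prolonged stress adds CHOP (Ddit3). Chondrocytes and osteoblasts secrete large amounts of collagen, whose triple helix needs its own hydroxylases and chaperone, and both cell types are known to use these pathways during normal differentiation.

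The ER stress response element (ERSE) is the sequence through which ATF6 and XBP1 are known to act on chaperone genes. Its full form, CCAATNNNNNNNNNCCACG, was searched on both strands in the 30 members with a RefSeq promoter window (GRCm38.p6, from 250 bases before to 50 after the transcription start). The members Atf6, Hyou1, Plod2, Fkbp10, Manf and Creb3l1 were not searched. An ERSE was present in 7 of the 30 windows (23.3%) against 39 of 32851 windows in all (0.119%). The members were listed as known genes of this response, so the contrast depends on that choice and is a description only. The 7 stretches are shown because they belong to chaperones and isomerases that are followed below, and capitals mark the element, written on the strand of the gene.
Hspa5: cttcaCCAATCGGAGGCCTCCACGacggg
Creld2: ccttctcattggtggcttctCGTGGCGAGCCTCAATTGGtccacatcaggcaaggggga
Calr: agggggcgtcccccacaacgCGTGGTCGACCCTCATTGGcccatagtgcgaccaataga
Hsp90b1: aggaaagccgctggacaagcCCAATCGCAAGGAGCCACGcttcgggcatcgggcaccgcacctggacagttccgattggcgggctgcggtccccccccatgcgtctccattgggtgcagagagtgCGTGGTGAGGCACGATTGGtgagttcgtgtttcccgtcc
Pdia6: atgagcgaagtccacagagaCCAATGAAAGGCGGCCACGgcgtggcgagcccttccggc
Canx: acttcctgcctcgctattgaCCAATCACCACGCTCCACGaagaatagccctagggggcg
Dnajc3: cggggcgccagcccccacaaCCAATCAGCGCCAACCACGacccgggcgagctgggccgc

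These stretches lie at chr2:34772020-34772048 (plus strand, Hspa5), chr15:88819500-88819558 (plus strand, Creld2), chr8:84847055-84847113 (minus strand, Calr), chr10:86705513-86705676 (minus strand, Hsp90b1), chr12:17266471-17266529 (plus strand, Pdia6), chr11:50325780-50325838 (minus strand, Canx) and chr14:118937807-118937865 (plus strand, Dnajc3). Hsp90b1 was the only one of the 7 with 2 elements, 1 in each orientation. The Hspa5 stretch is upstream of the RefSeq start but lies in an exon of a GENCODE M21 transcript that begins further upstream.

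In addition, 3 shorter sequences were searched in the same windows and on both strands. ERSE-II, which is ATTGG, any base and then CCACG, was present in Herpud1 and Dnajb11, which are 2 of 30 windows (6.67%) against 0.0365% of all windows. The C/EBP-ATF element, TGATGNAA, through which ATF4 and CHOP are known to act, was present in Chac1, Trib3, Asns and Herpud1, which are 4 of 30 windows (13.3%) against 3.97% of all windows. The XBP1-type core TGACGTGG was present in Sec23a and Sec24d (6.67% against 0.676%). Herpud1 held both an ERSE-II and a C/EBP-ATF element, and no base was shared between them. The Sec24d core lies at positions -26 to -19 from the start and the Sec23a core at 7 to 14. For ERSE-II and the C/EBP-ATF element, the stretches that lie before the start are printed with the element in capitals, because Herpud1, Chac1 and Asns differ from the chaperones in the values below.
Herpud1, ERSE-II: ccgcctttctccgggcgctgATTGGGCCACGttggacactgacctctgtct
Herpud1, C/EBP-ATF element: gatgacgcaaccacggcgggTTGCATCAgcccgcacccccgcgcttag
Chac1, C/EBP-ATF element: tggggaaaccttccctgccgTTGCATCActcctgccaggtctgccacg
Asns, C/EBP-ATF element: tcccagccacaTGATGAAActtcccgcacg

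Their positions are chr8:94386357-94386407 and chr8:94386297-94386344 (plus strand, Herpud1), chr2:119351029-119351076 (plus strand, Chac1) and chr6:7693214-7693243 (minus strand, Asns, in an exon of a GENCODE transcript). The element of Dnajb11, ATTGGCCCACG, begins at base 8 after the start, and that of Trib3, TTACATCA, at base 15. A match describes the letters of the window and not a bound site. As with the ERSE, the members were listed as genes of these pathways, so their shares beside all windows are a description only.

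**Figure D1:**
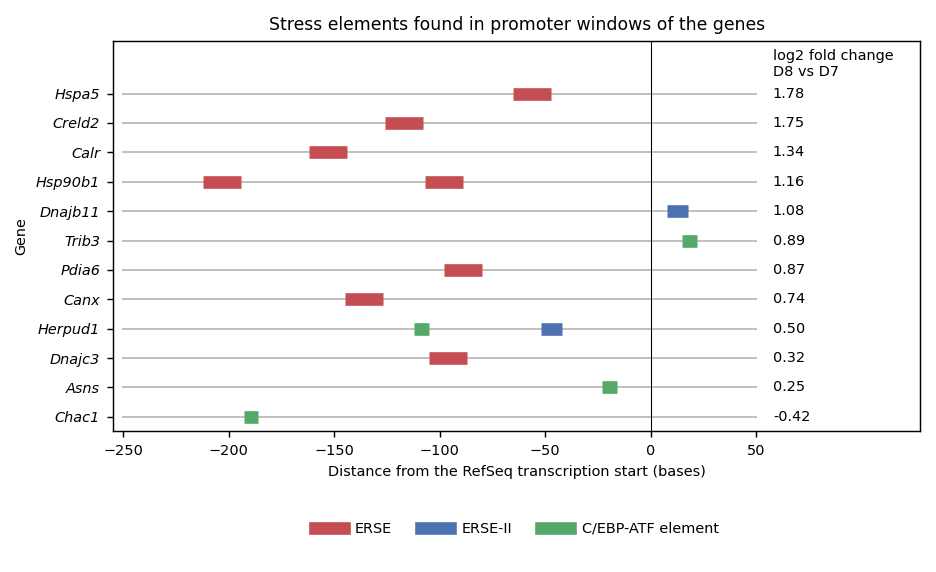
Position of the ERSE, ERSE-II and C/EBP-ATF elements in bases from the RefSeq transcription start (horizontal axis) for the 12 members that hold one, with the log2 fold change from D7 to D8 at the right. Genes are ordered by that change, from 1.78 for Hspa5 to -0.42 for Chac1.

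The values are the log2 of the authors' equalized HTSeq read count plus 1, and the equalization gave all libraries nearly the same distribution, so that a value ranks a gene within its library and the original totals are not kept. Relative depth, read from the steps of the low values, ranged from 0.73 to 1.31 between libraries, and 3 reads stood at a log2 value of at most 2.87. The lowest value of a member in any library was 8.00, so counting error was small for all 36 genes. Replicate 1 of D10 was the shallowest library (0.73). All 10 chondrocyte and all 10 osteoblast markers were detected at every time point. Of the markers of plasma and B cells, a cell type rich in the same secretory genes, 5 of 6 were under the level of 3 reads at D7, D8 and D10 and 3 of 6 at D28, and Mzb1 was at 0 in all libraries of D7, D8 and D10 and not at D28. The summed value of the 6 was between 5950 and 9425 over all libraries. At D7, D8 and D10 nearly all of this sum came from the marker that was not under 3 reads, so the sum does not stand for the set. Exons of 12 members overlap exons of another GENCODE gene, and as a share of exon length the overlap was largest for Ppib (825 of 3305 exon bases), Plod3 (529 of 4519) and Hsp90b1 (415 of 4032), each on the opposite strand. The library kits mark strand, but the strand setting of the counting is not given in the sources used here, so the levels of these 3 genes are less certain. In bulk RNA, fewer cells of a type and less RNA per cell cannot be told apart.

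Together, the 36 genes took between 1.44% and 1.52% of the summed unlogged values of a library at D7, between 2.15% and 2.36% at D8, between 1.86% and 2.25% at D10, and between 1.33% and 1.51% at D28. The D8 and D10 libraries were all above those of D7 and D28. Hspa5, which encodes the ER chaperone BiP, alone made up between 0.0917% and 0.114% at D7, between 0.324% and 0.399% at D8, between 0.435% and 0.706% at D10 and between 0.122% and 0.173% at D28. The mean level was highest at D7 for 8 genes, at D8 for 16, at D10 for 11 and at D28 for 1. It was lowest at D28 for 17 genes, at D7 for 11, at D10 for 8 and at D8 for 0. The same counts were not made over all genes, so they cannot be read as particular to the members.

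**Figure D2:**
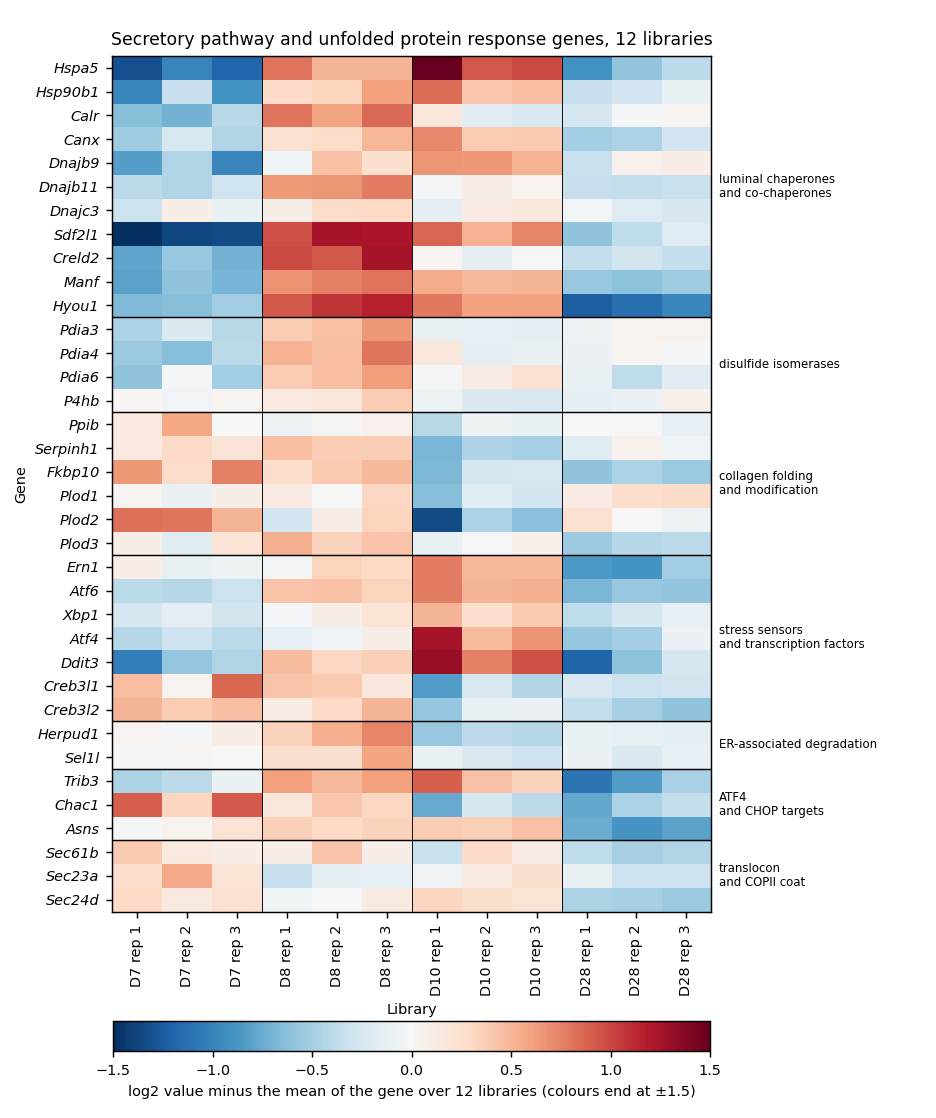
The log2 value of each of the 36 genes (rows, grouped by role) in each of the 12 libraries (columns), minus the gene's mean over the libraries. Of the 11 chaperones, 10 were higher at D8 than at D7 by the adjusted p alone (11.9% of all genes). By the same rule, 5 of the 6 collagen folding genes were lower at D10 than at D8 (15% of all genes). D28 holds the lowest mean of 17 genes, a count that was not made over all genes.

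In the comparisons, a gene is said to rise or fall where limma gave a log2 fold change of 1 or more in size together with a p under 0.05 after Benjamini-Hochberg adjustment over all genes tested. From D7 to D8, 10 of the 36 genes rose and 0 fell, where 3.23% of all genes tested rose and 3.81% fell. By the adjusted p alone, 20 members were higher and 2 lower, where 11.9% and 9.09% of all genes were. The median log2 fold change of the members was 0.38, beside 0.03 for all genes. From D8 to D10, 0 members rose and 2 fell (4.08% and 5.58% of all genes), and by the adjusted p alone 4 were higher and 18 lower (13.9% and 15% of all genes). The member median was -0.38 beside 0.00.

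D10 against D7 gave 8 members that rose and 2 that fell, where 8.5% of all genes rose and 10.4% fell. By the adjusted p alone, 19 members were higher and 9 lower (21.8% and 19.4% of all genes), with a median of 0.37 beside 0.05. From D10 to D28, 0 members rose and 10 fell (13.8% and 13.7% of all genes), with a median of -0.38 beside -0.10. By the adjusted p alone, 4 were higher and 20 lower (22.6% and 29.8% of all genes). At D28 against D7, 1 member rose and 2 fell (8.63% and 8.66% of all genes), with a median of -0.09 beside -0.03. By the adjusted p alone, 7 were higher and 13 lower (17.6% and 19.7% of all genes). At limma's unadjusted p under 0.05, the members higher and lower were 22 and 4 at D8 against D7, 9 and 20 at D10 against D8, 19 and 9 at D10 against D7, 4 and 21 at D28 against D10, and 8 and 14 at D28 against D7. The share of all genes at the unadjusted p was not taken, so the counts at that threshold cannot be set against it. The comparisons share time points, so their counts are not independent of each other. Without replicate 1 of D10, 7 members rose and 2 fell at D10 against D7.

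**Figure D3:**
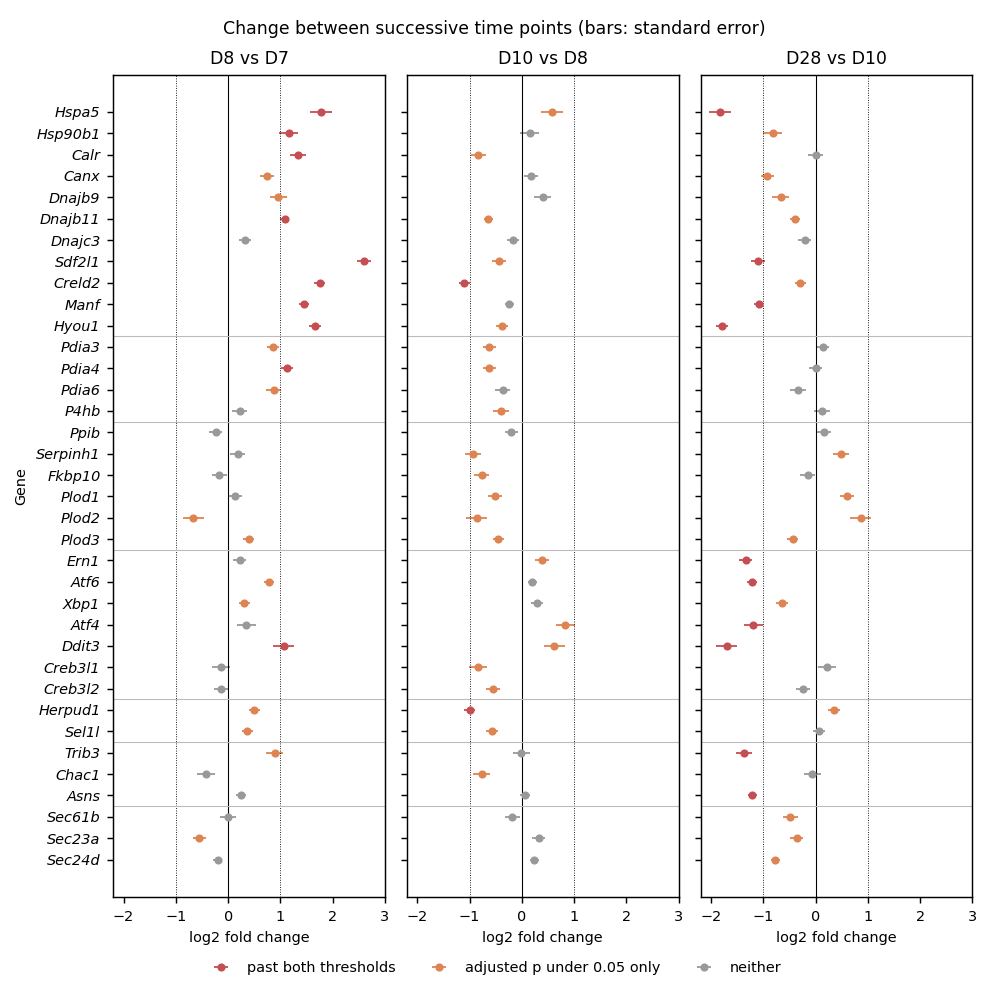
Log2 fold change with its standard error (horizontal axis) for each gene (rows, grouped by role) from D7 to D8, D8 to D10 and D10 to D28. Red points passed both thresholds, which were 10 genes in the first panel, 2 in the second and 10 in the third.

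Luminal chaperones and their co-chaperones were 8 of the 10 members that rose first. From D7 to D8, 8 of the 11 rose and 10 of 11 were higher by the adjusted p alone (3.23% and 11.9% of all genes), and the median log2 fold change was 1.34 beside 0.03. Sdf2l1, a partner of BiP in the ER lumen, moved most of all 36 genes. Its log2 values were 8.00, 8.30 and 8.33 at D7, 10.64, 10.91 and 10.89 at D8, 10.54, 10.19 and 10.40 at D10, and 9.06, 9.29 and 9.48 at D28. The libraries of every time point stood apart from those of every other, with the narrowest gap between D8 and D10. The rise to D8 was 6.07-fold (log2 2.60 ± 0.14 SE, limma, adjusted p = 2.7e-08). Sdf2l1 was also the single member that rose at D28 against D7 (log2 1.07 ± 0.14, limma, adjusted p = 2e-05), and it fell short of the fold threshold there without D7 replicate 1 (0.96) or without D28 replicate 3 (0.97).

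Hspa5 (ENSMUSG00000026864, chr2:34771970-34777547, plus strand, GRCm38) read 14.51, 14.83 and 14.64 at D7 and 16.64, 16.34 and 16.34 at D8 on the log2 scale. At D10 it stood at 17.46, 16.76 and 16.82, and at D28 at 14.92, 15.23 and 15.43. Every D10 library was above every D8 library, and the D28 libraries were above those of D7 by a small margin. The rise from D7 to D8 was 3.42-fold (log2 1.78 ± 0.21, limma, adjusted p = 3.2e-05). By D10 the level was 5.11-fold that of D7 (log2 2.35 ± 0.21, limma, adjusted p = 3.8e-07), and it fell by 1.82 on the log2 scale from D10 to D28 (limma, adjusted p = 2.8e-06). The step from D8 to D10 was 0.58 ± 0.21 (limma, adjusted p = 0.049), below the fold threshold. The largest of the 3 D10 values came from the shallowest library, without which the step was 0.35 (limma, adjusted p = 0.18), and over the other alternatives the adjusted p ranged from 0.03 to 0.14.

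From D8 to D10, 1 of the 11 chaperones, Hspa5, was higher by the adjusted p alone and 5 were lower (13.9% and 15% of all genes), namely Calr, Dnajb11, Sdf2l1, Creld2 and Hyou1. The other 5, Hsp90b1 (0.15), Canx (0.17), Dnajb9 (0.40), Dnajc3 (-0.17) and Manf (-0.24), did not pass. Creld2, an ER-resident protein that binds misfolded secreted proteins, had the largest of these decreases. Its log2 values were 10.22, 10.44 and 10.31 at D7, between 11.95 and 12.26 at D8, 11.04, 10.88 and 11.01 at D10, and 10.66, 10.74 and 10.66 at D28. D8 was above all other libraries, and D10 was between D8 and the remaining time points. Creld2 rose 3.35-fold to D8 (log2 1.75 ± 0.10, limma, adjusted p = 7.6e-08) and fell by 1.10 to D10 (limma, adjusted p = 4.4e-06).

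Calr encodes calreticulin, which holds glycoproteins during folding, and read 14.42, 14.35 and 14.65 at D7, 15.87, 15.66 and 15.91 at D8, 15.23, 14.89 and 14.84 at D10, and 14.81, 15.03 and 15.11 at D28. It rose 2.53-fold to D8 (log2 1.34 ± 0.15, limma, adjusted p = 2.7e-05), and its D10 and D28 libraries overlapped. From D10 to D28 its log2 fold change was 0.00, with a 95% interval from -0.33 to 0.33. Its membrane-bound relative Canx was 0.74 ± 0.13 higher at D8 and 0.91 ± 0.13 higher at D10 than at D7, which passed the adjusted p (limma, 0.00082 and 4.4e-05) and not the fold threshold.

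Hsp90b1, the ER form of HSP90 (GRP94), went from 13.49, 14.13 and 13.57 at D7 to 14.76, 14.81 and 15.09 at D8 and 15.31, 14.88 and 14.94 at D10. At D28 its values were 14.13, 14.18 and 14.37, with the lowest close to the highest of D7. The rise was 2.24-fold at D8 (log2 1.16 ± 0.18, limma, adjusted p = 0.00026) and 2.49-fold at D10 against D7 (log2 1.32 ± 0.18, limma, adjusted p = 2.4e-05).

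Hyou1, an exchange factor and chaperone of the HSP70 family, had the lowest D28 level against D7 in this group. It read 12.15, 12.17 and 12.29 at D7, 13.74, 13.88 and 13.98 at D8, 13.60, 13.42 and 13.42 at D10, and 11.58, 11.68 and 11.83 at D28. All D28 libraries were below all D7 libraries. Hyou1 rose 3.17-fold to D8 (log2 1.66 ± 0.11, limma, adjusted p = 1.4e-07) and fell by 1.79 from D10 to D28 (limma, adjusted p = 2.5e-09). The difference between D28 and D7, -0.51 ± 0.11, passed the adjusted p alone (limma, 0.0014).

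Manf, a small secreted ER stress protein, gave 11.13, 11.33 and 11.24 at D7, 12.61, 12.69 and 12.75 at D8, 12.49, 12.42 and 12.44 at D10, and 11.36, 11.32 and 11.40 at D28. Its D8 and D10 libraries stood well above the others, and D28 overlapped D7. The rise to D8 was 1.45 ± 0.09 on the log2 scale (limma, adjusted p = 9.9e-08), and the fall from D10 to D28 was -1.09 ± 0.09 (limma, adjusted p = 8.2e-08). With median of ratios scaling this fall was -0.96 and that of Sdf2l1, -1.10 as deposited, was -0.97, both short of the fold threshold. Without D28 replicate 1 the fall of Sdf2l1 was -0.99.

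The DNAJ co-chaperones of BiP differed among themselves. Dnajb11 rose at D8 (log2 1.08 ± 0.09, limma, adjusted p = 1.5e-06) from values between 11.33 and 11.49 to values between 12.42 and 12.55. Dnajb9, with its highest mean at D10, was 0.96 ± 0.16 higher at D8 and 1.37 ± 0.16 higher at D10 than at D7 (limma, adjusted p = 0.00047 and 5e-06). It passed the fold threshold at D8 without D7 replicate 2 (1.11) or without D8 replicate 1 (1.10). Dnajc3, also called P58IPK, an inhibitor of PERK, was the least variable member of all 36 by its range of means (0.38). Its change to D8 was 0.32, with a 95% interval from 0.06 to 0.58 (limma, adjusted p = 0.073). Its window holds 1 of the 7 ERSE matches shown above.

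**Figure D4:**
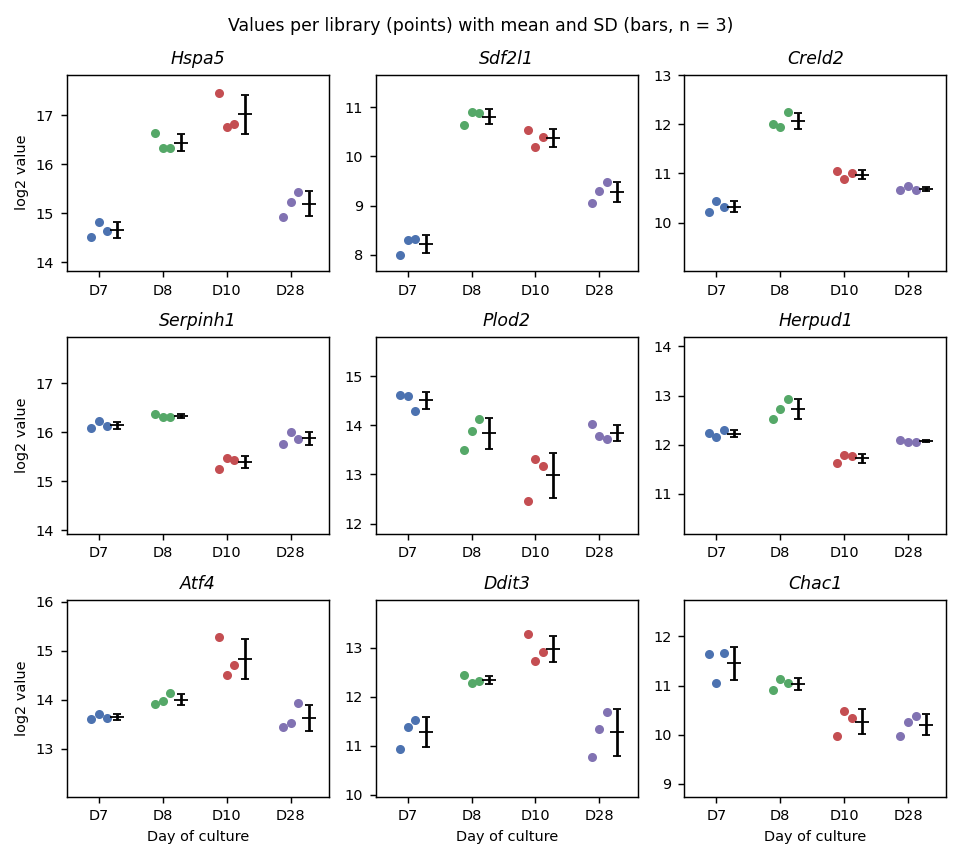
Log2 values of 9 genes in each library (points) by day of culture, with the mean and SD at each time point (bars, n = 3). Each panel spans 4 log2 units, and the panels show the D8 maximum of Creld2 and Sdf2l1, the D10 maximum of Hspa5, Atf4 and Ddit3, and the low D10 values of Serpinh1, Plod2 and Herpud1.

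The disulfide isomerases form and rearrange disulfide bonds of secreted proteins. Pdia4 rose at D8, from 12.61, 12.53 and 12.77 to 13.69, 13.62 and 13.97 (log2 1.13 ± 0.12, limma, adjusted p = 1.8e-05). Pdia3 and Pdia6 were 0.86 ± 0.12 and 0.87 ± 0.15 higher, past the adjusted p alone (limma, 0.00014 and 0.00067), and Pdia6 passed the fold threshold without D7 replicate 2 (1.05). P4hb differs from the other isomerases in that it is also the beta subunit of collagen prolyl 4-hydroxylase. Its values were between 15.54 and 15.62 at D7, between 15.72 and 15.96 at D8, between 15.34 and 15.51 at D10 and between 15.43 and 15.66 at D28. Its largest difference between successive time points was -0.40 ± 0.15 from D8 to D10 (limma, adjusted p = 0.049). From D10 to D28, 0 of the 4 isomerases passed the adjusted p, where 22.6% of all genes were higher and 29.8% lower.

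Of the collagen folding and modification genes, 0 of the 6 passed both thresholds at D8 or from D8 to D10. Of all genes, 3.23% rose and 3.81% fell at D8, and 4.08% and 5.58% from D8 to D10, so this count does not set the 6 apart. The median log2 fold change of the 6 at D8 was -0.02. At D10 against D8, 5 of the 6 were lower by the adjusted p alone, where 15% of all genes were, with a median of -0.64 beside 0.00. The disulfide isomerases (3 of 4 lower, median -0.51) and the chaperones (5 of 11 lower, median -0.24) had medians of the same sign over this step. At D28 against D10, 3 of the 6 collagen folding genes were higher and 1 lower by the adjusted p alone (22.6% and 29.8% of all genes).

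Plod2, the lysyl hydroxylase that acts on collagen telopeptides, fell most. It read 14.62, 14.60 and 14.30 at D7, 13.50, 13.89 and 14.13 at D8, 12.45, 13.32 and 13.17 at D10, and 14.02, 13.78 and 13.72 at D28. The D8 libraries were below those of D7 and the D10 libraries below those of D8, with no overlap, and D28 overlapped D8. At D10 it was 2.88-fold lower than at D7 (log2 -1.53 ± 0.20, limma, adjusted p = 2.5e-05). The lowest of its 12 values came from D10 replicate 1. The difference from D8 to D10 was -0.86 and that from D10 to D28 was 0.86, and both passed the fold threshold without D10 replicate 2 (-1.03 and 1.03), as the first did without D8 replicate 1 (-1.03).

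Serpinh1 encodes HSP47, the collagen-specific chaperone. Its values were 16.08, 16.22 and 16.13 at D7, 16.38, 16.30 and 16.30 at D8, 15.25, 15.47 and 15.44 at D10, and 15.75, 16.00 and 15.87 at D28. D10 was below every other library, and D8 was above every other one. The change was 0.18 ± 0.15 to D8 (limma, adjusted p = 0.47), -0.94 ± 0.15 from D8 to D10 (limma, adjusted p = 0.00043) and 0.49 ± 0.15 from D10 to D28 (limma, adjusted p = 0.015), none past the fold threshold. Per kilobase of exon, Serpinh1 had the highest level of the 36 genes at D7, at 14.86 on the log2 scale of the value per kilobase, followed by P4hb at 14.06. At D10 that order was Hspa5 at 14.93, Serpinh1 at 14.10 and P4hb at 13.88. Lengths are those of the union of annotated exons, and the order of these levels was not tested.

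Fkbp10, a prolyl isomerase of procollagen also called FKBP65, stood at 14.19, 13.81 and 14.29 at D7, 13.80, 13.93 and 14.02 at D8, 12.87, 13.28 and 13.30 at D10, and 12.94, 13.06 and 12.98 at D28. It was low at both later time points, which overlapped, and D8 overlapped D7. Fkbp10 fell at D28 against D7 (log2 -1.10 ± 0.14, limma, adjusted p = 2.1e-05). The difference of D10 from D7 was -0.95 ± 0.14 (limma, adjusted p = 8e-05) and passed the fold threshold with median of ratios scaling (-1.02) and without D7 replicate 2 (-1.09), D10 replicate 2 (-1.01) or D10 replicate 3 (-1.02).

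Plod1, which hydroxylates lysines of the helix, was the 1 member with its highest mean at D28, 0.60 ± 0.13 above D10 (limma, adjusted p = 0.0014). Plod3 was lowest at D28, 0.50 ± 0.11 under D7 (limma, adjusted p = 0.0023). Ppib, the cyclophilin of the collagen prolyl 3-hydroxylation complex, was 0.45 ± 0.13 lower at D10 than at D7 (limma, adjusted p = 0.015) and passed the adjusted p in no other comparison.

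Among the sensors and transcription factors, Ddit3 rose at D8 and Ddit3 and Atf4 rose at D10 against D7, while Ern1, Atf6, Atf4 and Ddit3 fell from D10 to D28. Ddit3 encodes CHOP, and read 10.93, 11.39 and 11.52 at D7, 12.44, 12.28 and 12.32 at D8, 13.27, 12.73 and 12.92 at D10, and 10.77, 11.35 and 11.70 at D28. The D7 and D28 libraries overlapped, D8 stood above both, and D10 stood above D8. Ddit3 rose by 1.06 ± 0.20 to D8 (limma, adjusted p = 0.0016) and was 3.22-fold higher at D10 than at D7 (log2 1.69 ± 0.20, limma, adjusted p = 8.8e-06). It fell by 1.70 from D10 to D28 (limma, adjusted p = 4.5e-06). Without D7 replicate 1 the difference at D8 was 0.89, short of the fold threshold.

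Atf4, the factor that PERK and related kinases raise through its translation, read 13.60, 13.72 and 13.63 at D7, 13.91, 13.97 and 14.13 at D8, 15.28, 14.50 and 14.70 at D10, and 13.45, 13.52 and 13.94 at D28. Each D10 library was above all others, and D28 overlapped D7. Its mRNA was 0.35 ± 0.18 higher at D8 (limma, adjusted p = 0.18) and 1.18 ± 0.18 higher at D10 than at D7 (limma, adjusted p = 7.5e-05). It fell by 1.19 from D10 to D28 (limma, adjusted p = 3.9e-05). Without D10 replicate 1 these were 0.95 and -0.96, short of the fold threshold, both still past the adjusted p (limma, 0.00013 and 6.7e-05).

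Atf6 and Ern1, sensors in the ER membrane, had their highest means at D10 and their lowest at D28. Atf6 was between 10.97 and 11.08 at D7, between 11.73 and 11.84 at D8, between 11.91 and 12.17 at D10 and between 10.72 and 10.83 at D28, with no overlap between time points. It fell by 1.22 from D10 to D28 (limma, adjusted p = 4.7e-08). The rise to D10 against D7 was 0.99 ± 0.09 (limma, adjusted p = 8.7e-07) and reached 1.02 without D7 replicate 3 and 1.03 without D10 replicate 2 or 3. Ern1 fell by 1.34 from D10 to D28 (limma, adjusted p = 4.9e-07), and its D28 values were 10.24, 10.20 and 10.58 against 11.20, 10.99 and 11.02 at D7.

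Xbp1 was 0.60 ± 0.11 higher at D10 than at D7 (limma, adjusted p = 0.00033) and at -0.64 ± 0.11 at D28 against D10 (limma, adjusted p = 0.00011). A gene total does not separate the spliced, active form of Xbp1 from the unspliced one. Creb3l1 and Creb3l2, ER-anchored factors that are known to raise collagen and secretory genes in bone and cartilage, had their highest means at D7. At D10 they were -0.97 ± 0.17 and -0.70 ± 0.13 against D7 (limma, adjusted p = 0.00033 and 0.00066). Creb3l1 passed the fold threshold with median of ratios scaling (-1.04) and without D7 replicate 2 (-1.17) or D10 replicate 2 (-1.10), and just reached it without D10 replicate 3.

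Herpud1 and Sel1l serve the degradation of misfolded ER proteins. Herpud1 had log2 values of 12.23, 12.15 and 12.29 at D7, 12.53, 12.73 and 12.92 at D8, 11.62, 11.79 and 11.76 at D10, and 12.09, 12.06 and 12.05 at D28. D8 was the highest and D10 the lowest time point, with no overlap among any of them. It was 0.50 ± 0.11 higher at D8 than at D7 (limma, adjusted p = 0.0032) and fell by 1.00 to D10 (limma, adjusted p = 1.2e-05). Without D8 replicate 3 that fall was -0.91 and without D10 replicate 1 it was -0.95, both short of the fold threshold. Sel1l followed in smaller steps, 0.37 ± 0.11 and -0.57 ± 0.11 (limma, adjusted p = 0.024 and 0.0012).

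The targets of ATF4 and CHOP followed different courses, and Chac1, Trib3 and Asns each held a C/EBP-ATF element. Chac1, a glutathione-degrading enzyme, read 11.64, 11.06 and 11.66 at D7, 10.91, 11.14 and 11.05 at D8, 9.98, 10.48 and 10.34 at D10, and 9.97, 10.26 and 10.38 at D28. Its D10 and D28 libraries lay below all of D7 and D8. Chac1 fell at D10 against D7 (log2 -1.18 ± 0.17, limma, adjusted p = 3.9e-05) and at D28 against D7 (log2 -1.25 ± 0.17, limma, adjusted p = 2.5e-05). Atf4 and Ddit3 were at their highest in the same D10 libraries.

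Trib3, a pseudokinase induced by CHOP, was 0.89 ± 0.16 higher at D8 and 0.88 ± 0.16 higher at D10 than at D7 (limma, adjusted p = 0.0012 and 0.00044). Its values were 10.99, 11.25 and 11.60 at D28 against 12.99, 12.53 and 12.43 at D10, a fall of -1.37 ± 0.16 (limma, adjusted p = 3.9e-06). Asns, asparagine synthetase, stayed between 12.18 and 12.64 in the libraries of D7, D8 and D10 and was at 11.45, 11.31 and 11.39 at D28. It fell by 1.21 from D10 to D28 (limma, adjusted p = 3.6e-08).

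Of the 3 translocon and coat genes, 0 passed the fold threshold in any of the 5 comparisons. Between 3.23% and 13.8% of all genes rose in a comparison and between 3.81% and 13.7% fell, so 0 of 3 is not particular to them. Sec61b, a subunit of the Sec61 channel, differed by 0.00 between D8 and D7, with a 95% interval from -0.31 to 0.30. Sec23a and Sec24d, subunits of the inner COPII coat, were -0.55 ± 0.12 and -0.20 ± 0.09 at D8 (limma, adjusted p = 0.004 and 0.13). From D10 to D28 all 3 were lower by the adjusted p alone (29.8% of all genes), at -0.48 for Sec61b, -0.36 for Sec23a and -0.77 for Sec24d.

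Over the 12 libraries, the members most like Hspa5 by Pearson correlation were Ddit3 (0.96), Canx (0.95), Hsp90b1 (0.95) and Atf6 (0.92), and Plod2 was the least alike (-0.86). The members most like Serpinh1 were Herpud1 (0.88), Creb3l1 (0.80), P4hb (0.74) and Plod2 (0.73), and Atf4 was the least alike (-0.70). For Atf4 the highest were Xbp1 (0.95) and Ddit3 (0.91). These correlations follow the 4 time points that all genes share and are a description only.

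Genes outside the 36 that hold an ERSE were few, and 16 of 30 were tested. From D7 to D8, where 3.23% of all genes rose, 2 of the 16 did, Derl3 and Tdrd9, and the median log2 fold change was -0.07. The adjusted p alone called 4 higher and 2 lower (11.9% and 9.09% of all genes). Among 21 other ER-associated degradation genes, 1 rose at D8 and 7 were higher by the adjusted p alone. Derl3, a derlin of the degradation channel, went from a mean of 4.94 at D7 to 8.11 at D8, 6.89 at D10 and 5.64 at D28. Of 21 other ER chaperones and redox enzymes, 2 rose and 0 fell at D8, with a median of 0.12. At D10 against D7, Ero1lb, an oxidase for the isomerases, rose (log2 1.60 ± 0.21, limma, adjusted p = 1.7e-05) and Prdx4 fell (-1.34 ± 0.24, limma, adjusted p = 0.00033).

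At D8, where 3.23% of all genes rose and 3.81% fell, 0 of 21 genes of the translocon, signal recognition particle and signal peptidase rose or fell, as at D10 against D7. The counts at D8 were likewise 0 of 19 for the COPII coat, 0 of 21 for the COPI coat and cargo receptors, and 0 of 14 for N-glycosylation, at medians of -0.10, -0.11 and 0.20. By the adjusted p alone, 2, 2 and 6 were higher and 2, 2 and 2 lower, where 11.9% and 9.09% of all genes were. From D10 to D28, 11 of 19 COPII genes were lower by the adjusted p alone and 0 higher, where 29.8% and 22.6% of all genes were.

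At D10 against D7, where 8.5% of all genes rose and 10.4% fell, 1 of 14 targets of ATF4 in amino acid synthesis and transport rose, the cystine transporter Slc7a11 (log2 2.23 ± 0.21, limma, adjusted p = 7.9e-07), and 1 fell, the leucine transporter Slc7a5 (-1.33 ± 0.13, limma, adjusted p = 1.2e-06). By the adjusted p alone, 8 of the 14 were higher and 3 lower (21.8% and 19.4% of all genes). Of 17 other integrated stress response genes, 3 rose and 1 fell, and by the adjusted p alone 6 were higher and 6 lower. Gdf15, a stress-induced secreted factor, went from a mean of 8.57 at D7 to 12.86 at D10 (log2 4.29 ± 0.33, limma, adjusted p = 8.9e-08) and Atf3 from 9.45 to 11.83 (2.39 ± 0.33, limma, adjusted p = 3.2e-05). Stc2 fell (-1.74 ± 0.19, limma, adjusted p = 2.7e-06). All 12 aminoacyl-tRNA synthetases on the list were lower at D28 than at D10 by the adjusted p alone (29.8% of all genes), with a median of -0.76 beside -0.10, and 2 of them, Wars and Sars, passed the fold threshold (13.7% of all genes).

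Cytosolic and mitochondrial heat shock genes serve folding outside the ER. At D8, 1 of 16 rose and 1 fell (3.23% and 3.81% of all genes), with a median of 0.24. At D10 against D7, 12 of 16 rose and 0 fell (8.5% and 10.4% of all genes), with a median of 1.25 beside 0.05 for all genes. Hspa1b, an inducible HSP70 with a near-identical copy in Hspa1a, between which reads may be split, went from a mean of 7.33 to 10.26 (log2 2.93 ± 0.30, limma, adjusted p = 1.9e-06). From D10 to D28, 7 of the 16 fell, where 13.7% of all genes did.

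Of 13 other collagen modification enzymes, 0 rose and 6 fell at D10 against D7 (8.5% and 10.4% of all genes), with a median of -0.99 beside 0.05, and by the adjusted p alone 0 were higher and 11 lower (21.8% and 19.4% of all genes). P4ha3, a catalytic subunit of prolyl 4-hydroxylase, fell most (-2.48 ± 0.21, limma, adjusted p = 2.9e-07), followed by Fkbp7 (-1.95 ± 0.27, limma, adjusted p = 3e-05). Of 12 fibrillar and cartilage collagens, 0 rose and 7 fell over the same step, with a median of -1.15, and by the adjusted p alone the counts were the same. Col3a1 went from a mean of 17.70 to 15.61 and Col5a1 from 16.81 to 15.09.

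**Figure D5:**
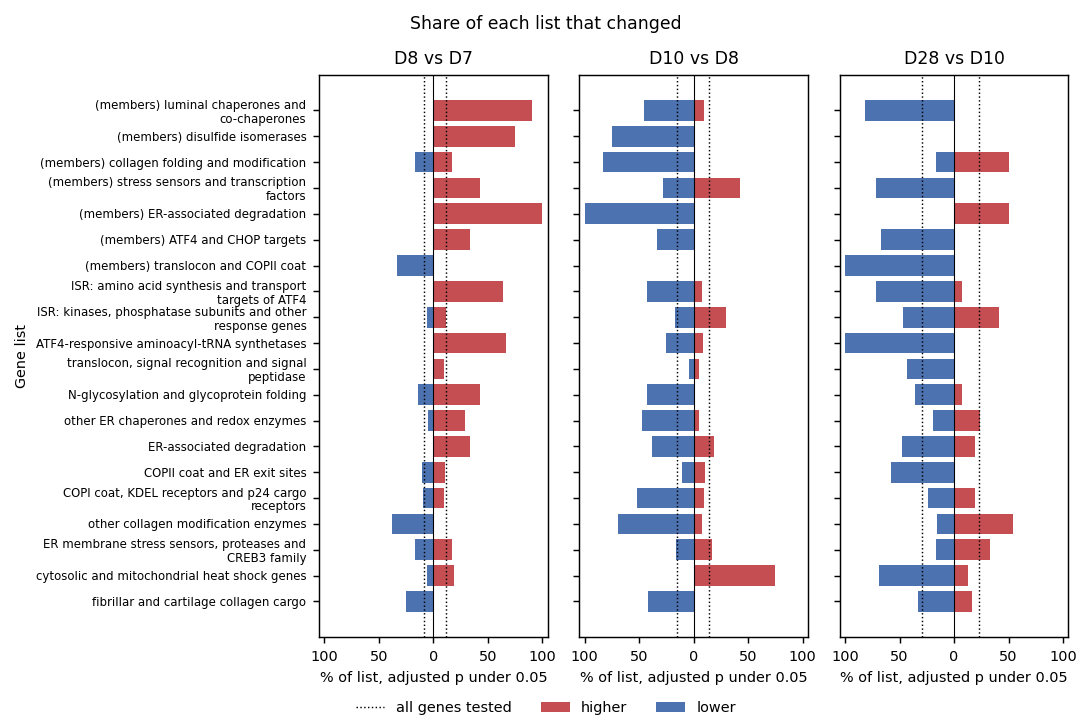
Share of each gene list (rows) that was higher (red, to the right) or lower (blue, to the left) by the adjusted p alone, in percent of the genes tested, from D7 to D8, D8 to D10 and D10 to D28. Dotted lines give the share of all genes tested, and the first panel shows 10 of 11 chaperones higher, the second 12 of 16 heat shock genes higher and the third 12 of 12 aminoacyl-tRNA synthetases lower.

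Markers of cell types changed over the same days. The shares of all genes that rose and fell were 3.23% and 3.81% at D8 against D7, 8.5% and 10.4% at D10 against D7, and 13.8% and 13.7% at D28 against D10. The summed unlogged value of 10 chondrocyte markers was between 2753189 and 2824256 at D7, between 2664817 and 3120779 at D8, between 1462778 and 1615313 at D10, and between 2457375 and 2540182 at D28. It was lowest at D10, the time point at which Hspa5, Atf4 and Ddit3 were highest and Serpinh1 and Plod2 lowest. Of the 10, 0 rose and 6 fell at D10 against D7, and 5 rose and 1 fell from D10 to D28. Col10a1 was the marker that fell in the second step, with means of 17.27 at D7, 18.10 at D10 and 14.28 at D28. The sum of 8 adipocyte markers was between 6185 and 6737 at D7, between 3618 and 4315 at D8, between 2477 and 2736 at D10 and between 60522 and 83650 at D28. Against D7, 4 of the 8 fell at D8 and 6 at D10, and 8 of the 8 rose from D10 to D28. The sum of 8 skeletal muscle markers was between 2850 and 3616 at D7, between 769 and 1317 at D8, between 235 and 384 at D10 and between 70 and 160 at D28. Against D7, 4 of these 8 fell at D8 and 7 at D10. The sum of 10 osteoblast markers was between 159642 and 186906 at D7, between 168023 and 339670 at D8, between 500375 and 501854 at D10 and between 348613 and 428558 at D28. Its members did not all move one way, since against D7 4 rose and 2 (Alpl and Ibsp) fell at D8, and 5 rose and 3 (Sp7, Alpl and Ibsp) fell at D10. From D10 to D28, 6 of the 10 rose and 0 fell, with a median log2 fold change of 1.28, although the sum was lower at D28. The sum of 6 endothelial markers was between 52 and 76 at D7, between 256 and 419 at D8, between 399 and 515 at D10 and between 22 and 54 at D28. At D8, 3 of the 6 rose against D7 (Pecam1, Kdr and Vwf), and 0 fell. The sum of 8 macrophage and osteoclast markers was between 1005 and 1612 at D7, D8 and D10 and between 1241 and 4994 at D28. Their part in the changes of the 36 genes was not tested.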

How the data were processed

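RNA sequencing values of 12 libraries (D7, D8, D10 and D28, 3 each) were re-analysed. According to the processing notes and the study's methods, reads were trimmed with Trimmomatic 0.36, aligned with HISAT2 (the mouse build GRCm38 in the notes, but the human build hg38 in the methods, while the table holds mouse gene symbols), passed through Cufflinks and HTSeq for annotation and counting, and equalized. The values deposited are log2 values, formed by the authors from the equalized counts with a pseudocount of 1. Replicates were not pooled. Library totals are not kept, and relative depth was read from 562 genes whose low values follow whole reads, which covers counting error only, since no molecular identifiers were used.

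Time point means were fitted in limma 3.58.1 (R 4.3.3) over all 12 libraries, with a variance trend and no block (residual degrees of freedom 8, prior 7.23). A gene was tested if 3 or more libraries had a log2 value of 1 or above, and 10570 genes were not. Tests were two-sided with Benjamini-Hochberg adjustment over the 17674 genes tested, and 5 comparisons were made. Errors given with a fold change are standard errors. The fit was tested on simulated data. The members, lists and motifs were chosen with earlier results of these data known. All 36 members are named, and from each other pathway list at most the 2 called genes with the largest rise and the 2 with the largest fall at D10 against D7 and at D28 against D10, apart from the genes with an ERSE (Derl3, Tdrd9), which were named after their values were seen. Positions are from GENCODE M21, promoter windows from RefSeq, and motif searches and figures used pandas 2.3.3, matplotlib 3.10.9 and numpy 2.4.6 under Python 3.11.15.

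Alternatives covered the call rule (including the study's own, an unadjusted 2-sample test), the filter, the scaling, the pseudocount, the variance trend, the libraries in the fit, a replicate block and each library left out in turn. Batches are not given in the labels.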

Additional observations from a re-analysis of the deposited data

How the results depend on the processing

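Of 35 member comparisons that passed both thresholds, 28 kept the call under all 21 alternatives that keep a fold threshold of 1, 7 lost it under at least 1, and 7 of 145 others gained it. In the same alternatives 0 member comparisons reversed. With no fold threshold the members higher and lower were 20 and 2 at D8 against D7, 4 and 18 at D10 against D8, 19 and 9 at D10 against D7, 4 and 20 at D28 against D10, and 7 and 13 at D28 against D7. With a log2 fold change of at least 2, 1 member was higher at D8 against D7, 2 at D10 against D7 and 0 at D28 against D7, and 0 were lower at D10 against D8, D10 against D7, D28 against D10 and D28 against D7. Median of ratios scaling gave 4 members lower at D10 against D7 and moved the median of all genes from D10 to D28 by 0.11. Each library left out in turn gave 9 to 12 members higher and 0 lower at D8 against D7, 0 higher and 1 to 3 lower at D10 against D8, 7 to 9 higher and 2 to 4 lower at D10 against D7, 0 to 1 higher and 9 to 10 lower at D28 against D10, and 0 to 1 higher and 2 lower at D28 against D7. The cause of these differences was not tested.

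Replicate numbers showed no pairing of the libraries in these values, which does not exclude shared litters or cell preparations. Deviations of same-numbered libraries correlated between -0.06 and 0.07, 0 of 18 pairs were over 0.1, and 3 of 12 libraries correlated best with their own number. With a replicate block the counts of members higher and lower were 10 and 0 at D8 against D7, 0 and 2 at D10 against D8, 8 and 2 at D10 against D7, 0 and 10 at D28 against D10, and 1 and 2 at D28 against D7. Depth does not limit these genes, whose lowest value was 8.00 against at most 2.87 for 3 reads. Equalized values show changes relative to other genes only, and 3 libraries a time point limit the precision.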
